A study of Mus musculus with 10 samples.

Results

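The DDX and DHX genes encode RNA helicases, enzymes that use ATP to unwind or remodel RNA and the complexes that RNA forms with protein. They are named for the amino acids of their ATPase motif: DEAD-box proteins (DDX) carry aspartate, glutamate, alanine and aspartate there, and DEAH-box proteins (DHX) end in histidine. Most are housekeeping factors of ribosome assembly, splicing, mRNA export, translation and mRNA decay, and a few sense or restrict viral RNA. Members were taken as all protein-coding genes of the count table whose symbol starts with Ddx or Dhx and a number, apart from the cytosolic RNA sensor genes Ddx58 and Dhx58. This gave 51 genes, 36 DDX and 15 DHX, of 22046 protein-coding genes and 54532 genes in all.

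Hearts of 5 C57BL/6 mice injected with saline were compared with hearts of 5 C57BL/6 mice taken 24 h after lipopolysaccharide (LPS), a bacterial cell wall component used to model sepsis, all at 8 weeks of age. The time is that of the sample labels and the count table, while 2 other deposited tables, not used here, name their LPS columns for 3 h. The question is how endotoxin stress alters the RNA of the heart. No genetic change is given for either group, and the sources used here give neither dose nor sex. The labels number the mice of each group, but do not say how they were housed or processed, so p-values measure the spread between these libraries.

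Total counts were between 14607969 and 17012372 reads per library. Saline replicate 5 stood apart: its 20 interferon-stimulated genes summed to 5005 CPM (read counts scaled to library size), against 212 to 776 CPM in the other saline libraries and 8315 to 17094 CPM in LPS libraries, so values without it are given where they matter. Summed cardiomyocyte markers (10 genes, all with reads) were between 51032 and 62103 CPM in saline and between 57139 and 61084 CPM in LPS libraries. The 10 endothelial markers all fell, from a summed 1258 to 2351 CPM to 772 to 974 CPM. The 10 macrophage and monocyte markers summed to 522 to 743 CPM in saline and 396 to 607 CPM in LPS libraries, the 10 neutrophil markers to 3.65 to 27.5 and 15.7 to 44.5 CPM, the 10 lymphocyte markers to 1.49 to 4.57 and 1.97 to 2.80 CPM, the 10 fibroblast markers to 3014 to 3600 and 2720 to 3661 CPM, and the 5 erythroid markers to 359 to 728 and 381 to 783 CPM. In whole hearts fewer cells of a type and less RNA per cell cannot be told apart, and the part of cell makeup in the helicase results was not tested.

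Of the 51 members, 48 had enough reads to be tested. The 3 left out are the germ line genes Ddx4, Ddx25 and Ddx43, with 12, 1 and 3 reads over all saline libraries and 27, 0 and 0 over all LPS libraries. Ddx3y lies on the Y chromosome and had 1207 to 1834 reads in each of the 10 libraries.

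**Figure D1:**
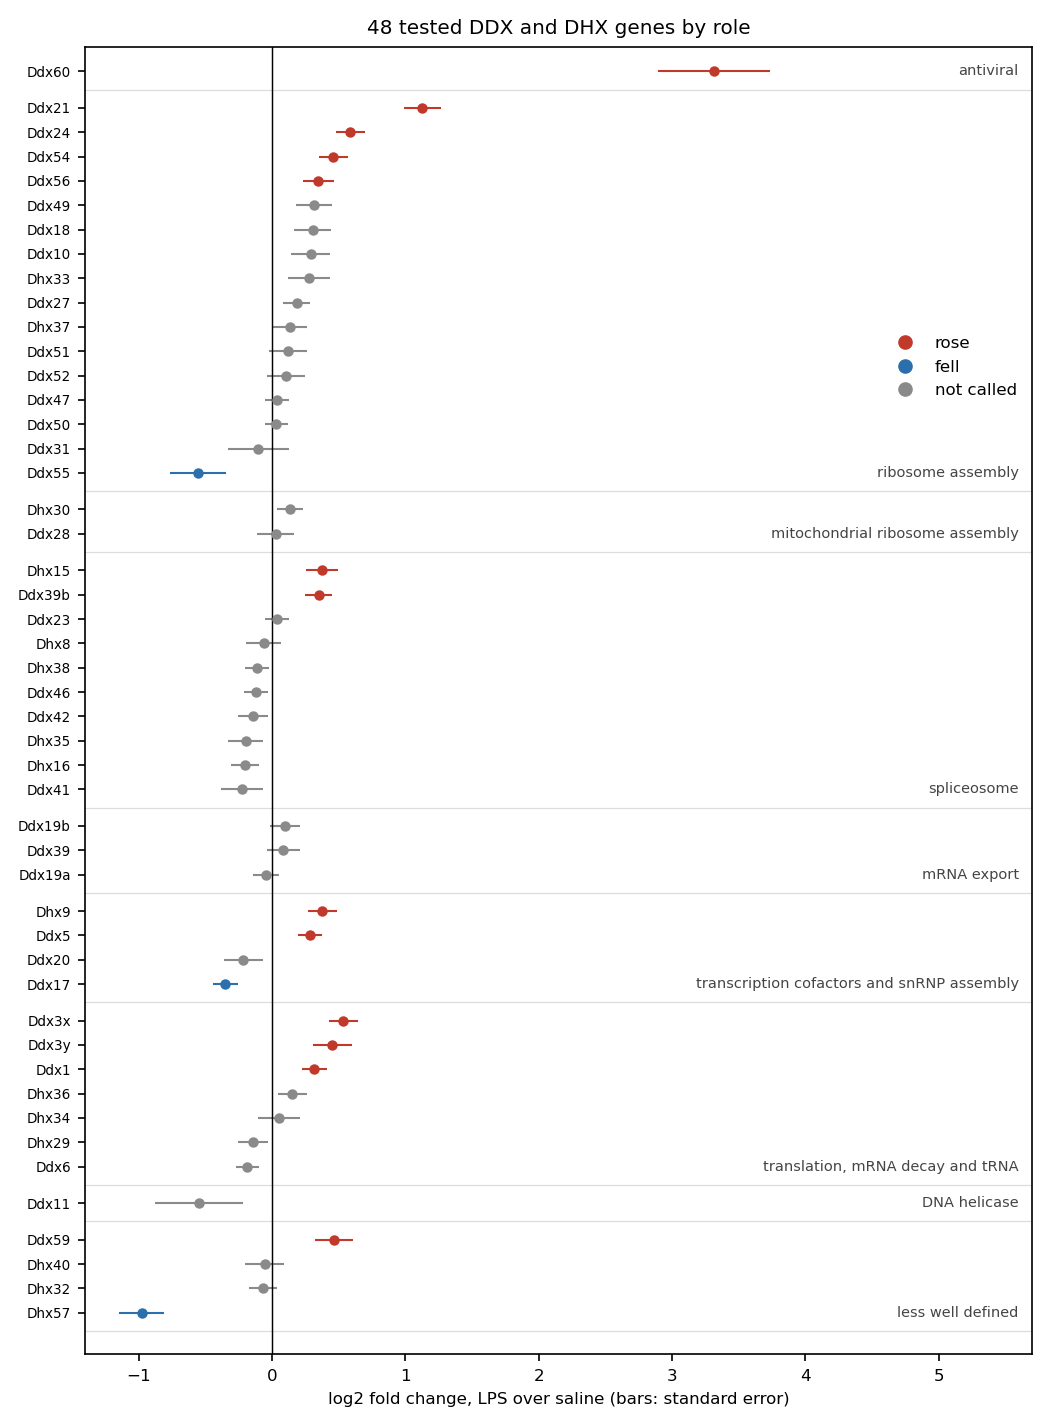
Log2 fold change of LPS over saline (horizontal axis, TMM scaling) with its standard error for the 48 tested members (vertical axis), grouped by role and coloured by call at an adjusted p of 0.05. Ddx60 stands at 3.31 and Ddx21 at 1.13, Dhx57 is lowest at -0.98, and the other members lie between -0.56 and 0.59.

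With LPS, 13 of the 48 tested members rose and 3 fell (edgeR quasi-likelihood test, adjusted p under 0.05 over all genes), while 32 did not pass. That is 33.3% of members, against 39.9% of all 13864 tested genes. Rising members were 27.1% against 18.9% of all genes, and falling members 6.25% against 21.0%. The 5 LPS libraries all lay above the 5 saline libraries in 10 members and all below in 2, where all genes had 28.4% without overlap in either direction, 14.3% above and 14.1% below. The median log2 fold change of the members was 0.09, beside -0.02 for all tested genes. Among DDX genes 11 rose and 2 fell of 33 tested, and among DHX genes 2 rose and 1 fell of 15; no test of this difference was made.

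How libraries were scaled decided most of the smaller calls. The scale used (TMM) assumes that most genes do not differ, and scaling by the total count instead moved the median of all genes by -0.27, to -0.30, on the log2 scale. With total count scaling 4 members rose and 15 fell, with a median of -0.18. With upper quartile scaling 5 rose and 10 fell, with a median of -0.068. Of all 13864 tested genes, 1711 rose and 5774 fell with total count scaling, and 1992 rose and 4407 fell with upper quartile scaling. Ddx60, Ddx21, Ddx24 and Ddx3x rose, and Dhx57 and Ddx17 fell, in each of the 18 alternatives tried. Without saline replicate 5, 13 members rose and 3 fell, as with all libraries. When LPS replicate 5 was left out, 12 rose and 5 fell. The added falls were Ddx6 (log2 fold change -0.23, adjusted p = 0.0238) and Ddx42 (-0.25, adjusted p = 0.0355).

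**Figure D2:**
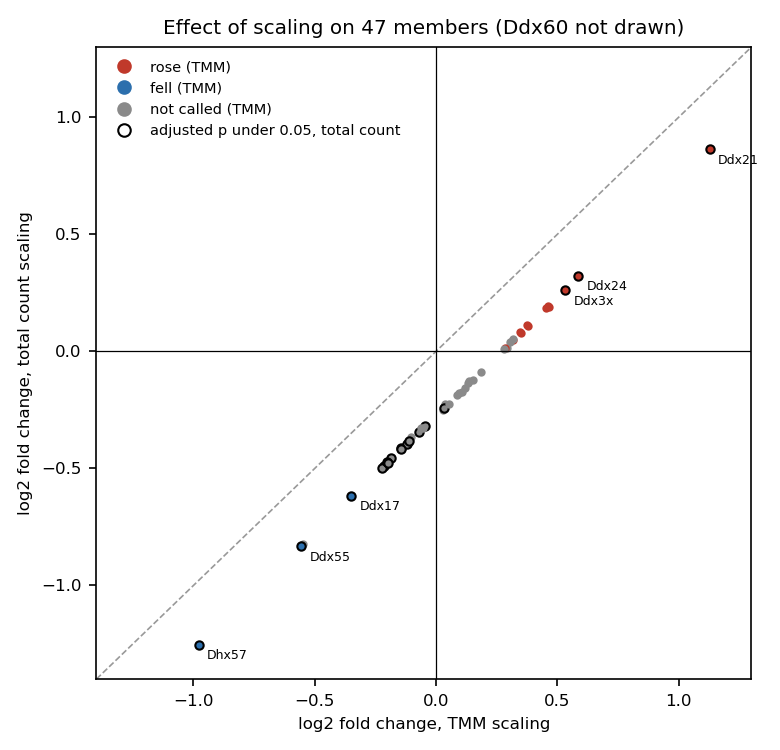
Log2 fold change of LPS over saline with TMM scaling (horizontal axis) and with total count scaling (vertical axis) for 47 members; points are coloured by the TMM call, black rims mark adjusted p under 0.05 with total count scaling, and the dashed line marks equal values. All points lie below the line, and Ddx21, Ddx24 and Ddx3x stay above 0 with a black rim.

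Ddx60 (ENSMUSG00000037921, GRCm38 chromosome 8, 61928087 to 62038244, plus strand) encodes an interferon-inducible helicase of the antiviral response. It was chosen for a look at its promoter because it rose most among the members. The 250 bases before its RefSeq start site (GRCm38.p6, chr8:61927837-61928086, plus strand) are shown 5′ to 3′, with each match to the core of the interferon-stimulated response element (GAAA, any 2 bases, GAAA) in capitals.

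Ddx60: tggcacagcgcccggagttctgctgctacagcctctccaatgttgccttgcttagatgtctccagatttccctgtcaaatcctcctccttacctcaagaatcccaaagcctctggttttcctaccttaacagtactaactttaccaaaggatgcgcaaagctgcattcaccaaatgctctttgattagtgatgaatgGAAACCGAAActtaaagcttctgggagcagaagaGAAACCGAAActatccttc

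Both matches read GAAACCGAAA on the gene's own strand, 1 at -53 to -44 and 1 at -19 to -10 relative to the start. Searched on both strands of windows from 250 bases before to 50 after the start, that core was present in 3.44% of 32851 RefSeq windows, or in at least 1 window of 3.99% of 27025 genes. RefSeq windows were found for 46 of the 51 members, and of these Ddx60 and Ddx49 had the core. Ddx49 has a single match, GAAAAAGAAA, whose first base is at -246 or -227 relative to the start, depending on which of its RefSeq starts is used. The core TTCNNNGAA of STAT sites was found in windows of 4 members (Ddx42, Ddx51, Ddx56 and Dhx35; 9.55% of all genes) and the E-box CACGTG in windows of 7 (Ddx25, Ddx4, Ddx42, Ddx5, Dhx33, Dhx35 and Dhx40; 8.09% of all genes). A match is a description of the letters and does not show binding.

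Ddx60 was at 4.96, 11.1, 4.94, 5.79 and 15.6 CPM in saline replicates 1 to 5 and at 102, 104, 42.6, 97.7 and 75.4 CPM in LPS replicates 1 to 5. The groups did not overlap, and saline replicates 5 and 2, the highest of their group, were also the saline libraries with the most interferon-stimulated RNA (5005 and 776 CPM summed). LPS replicate 3, the lowest of its group, also had the lowest interferon sum among LPS libraries (8315 CPM). Expression was 9.95 times as high, or 3.31 ± 0.42 on the log2 scale (SE; edgeR adjusted p = 0.000280), and leaving out saline replicate 5 gave 3.65. On the length-scaled FPKM values of the authors, Ddx60 went from 1.03 ± 0.577 to 10.4 ± 3.20 (SD, n = 5), from the 47th to the 11th of the 51 members. Of the 20 interferon-stimulated genes, 15 rose and 0 fell, with a median log2 fold change of 3.04. All 20 lay above the saline libraries in every LPS library. Among all tested genes 18.9% rose and 14.3% lay above in every LPS library.

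**Figure D3:**
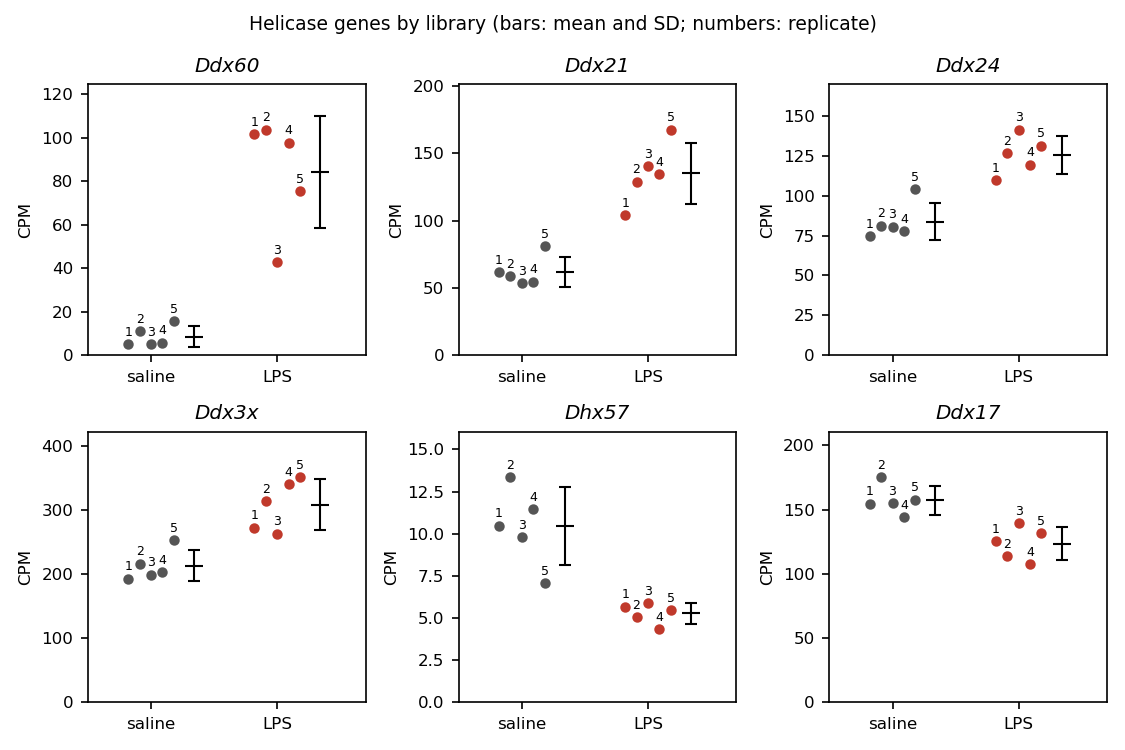
CPM (vertical axes, from 0) of the 6 members whose call held in every alternative, by group, with 1 numbered point per library and the mean and SD beside each group. LPS points lie above all saline points in Ddx60, Ddx21, Ddx24 and Ddx3x and below them in Dhx57 and Ddx17; saline replicate 5 is the saline point nearest to LPS in the first 4 and in Dhx57.

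Helicases of ribosome assembly work in the nucleolus, where they release small nucleolar RNAs and refold precursor ribosomal RNA. Of 16 such members, 4 rose, 1 fell and 11 did not pass, and the median log2 fold change was 0.23 (-0.04 with total count scaling). Rising members were 25% and falling members 6.25% of the 16, beside 18.9% and 21.0% of all tested genes. The median of all tested genes was -0.02 (-0.30 with total count scaling). Ddx21, which couples transcription of ribosomal RNA genes to processing of the transcript, had the largest change of the 16 members. It was at 61.6, 58.7, 53.5, 54.7 and 81.0 CPM in saline replicates 1 to 5 and at 104, 129, 140, 135 and 168 CPM in LPS replicates 1 to 5. The groups did not overlap, and Ddx21 rose 2.18-fold, by 1.13 ± 0.14 on the log2 scale (SE, edgeR adjusted p = 2.13e-05). Without saline replicate 5 the log2 fold change was 1.25. Ddx21 moved from the 8th to the 3rd place among members by mean FPKM.

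Ddx24, a helicase needed for the large ribosomal subunit, was at 74.7, 81.1, 80.5, 77.8 and 104 CPM in saline and at 110, 126, 141, 120 and 131 CPM in LPS libraries. Saline replicate 5 came close to LPS replicate 1 but did not reach it (log2 fold change 0.59 ± 0.11 SE, adjusted p = 0.000552, edgeR). Without saline replicate 5 the log2 fold change was 0.68. Ddx24 overlaps Gm47260, a gene on the same strand that rose (log2 fold change 1.19), over 3105 bases. Over all libraries Ddx24 had 16196 reads and Gm47260 had 289, and the effect of the overlap was not tested. Ddx54, also of the large subunit, was at 25.0, 22.9, 24.3, 21.0 and 27.1 CPM in saline and at 30.0, 31.7, 41.0, 30.3 and 32.5 CPM in LPS libraries. It rose by 0.46 ± 0.11 on the log2 scale (adjusted p = 0.00378), with no overlap between the groups, and by 0.19 with total count scaling (adjusted p = 0.201). Ddx56, also of the large subunit, was at 14.8, 13.5, 14.1, 12.6 and 14.6 CPM in saline and at 17.6, 16.3, 22.0, 15.2 and 17.5 CPM in LPS libraries. The groups did not overlap (0.35 ± 0.12 on the log2 scale, adjusted p = 0.0262, edgeR), but the call failed when saline replicate 3, saline replicate 4 or LPS replicate 3 was dropped (adjusted p up to 0.0715) and under the 2 scalings above.

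Ddx55, another large subunit factor, went the other way. It was at 4.80, 5.85, 6.34, 5.61 and 4.69 CPM in saline and at 2.49, 2.65, 3.99, 4.18 and 5.24 CPM in LPS libraries, so that LPS replicate 5 lay within the saline range. Its log2 fold change of -0.56 ± 0.21 (SE) passed narrowly (adjusted p = 0.0477, edgeR) and failed in 11 of 18 alternatives, in 8 of which a single library was left out (each of saline replicates 1 to 4 and LPS replicates 1 to 4; adjusted p up to 0.137). The remaining 11 ribosome helicases had log2 fold changes from -0.10 in Ddx31 to 0.32 in Ddx49. Among these 11, Ddx49 (8.48 ± 0.967 and 10.5 ± 1.5 CPM; adjusted p = 0.0760) had LPS libraries all above saline ones. Ddx18 (0.31, adjusted p = 0.0974) and Ddx10 (0.29, adjusted p = 0.131) passed when LPS replicate 1 was left out (0.41 in both, adjusted p = 0.0159 and 0.0128). Of the 50-base stretches in Ddx18 transcripts, 55.9% also occur in other annotated transcripts, chiefly the predicted gene Gm16433, so its reads may have been split. Ddx49 overlaps Homer3, a gene on the other strand that fell, over 1496 bases, and the sources used here do not say whether reads were assigned by strand.

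Other ribosome assembly factors, which are not helicases, rose in 36 of 65 genes and fell in 0. The rising share was 55.4%, beside 18.9% of all tested genes, of which 21.0% fell, and the median log2 fold change was 0.41. The largest changes were in Wdr43, a subunit of the small subunit processome (1.63 ± 0.13 SE), and Nop58, a core protein of box C/D small nucleolar particles (1.39 ± 0.21). With upper quartile scaling 20 rose and 3 fell, and with total count scaling 15 rose and 5 fell, with a median of 0.15. Under total count scaling 1711 of all 13864 tested genes rose and 5774 fell, with a median of -0.30. Whether the helicases differ from these factors was not tested. In mitochondria, ribosome assembly uses Ddx28 and Dhx30, whose log2 fold changes were 0.03 ± 0.14 and 0.13 ± 0.10 (SE; adjusted p = 0.898 and 0.317). Ddx28 lies wholly inside Dus2, a gene on the other strand.

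Spliceosomal helicases drive the rearrangements of each splicing cycle. Of 10 members 2 rose, 0 fell and 8 did not pass, with a median log2 fold change of -0.12. The rising share of 20% was near the 18.9% of all tested genes, of which 21.0% fell. Dhx15, which takes spent spliceosomes apart, was at 66.9, 75.1, 67.4, 76.6 and 97.6 CPM in saline and at 84.3, 94.3, 102, 101 and 116 CPM in LPS libraries. Saline replicate 5 lay above LPS replicates 1 and 2, and Dhx15 rose by 0.38 ± 0.12 on the log2 scale (SE; adjusted p = 0.0199), or 0.48 with that library dropped. Dropping saline replicate 3 ended the call (adjusted p = 0.0585). Ddx39b, which acts in early spliceosome assembly and mRNA export, was at 62.9, 63.5, 59.4, 58.3 and 53.3 CPM in saline and at 66.3, 70.3, 90.6, 70.2 and 81.6 CPM in LPS libraries. These groups did not overlap (log2 fold change 0.35 ± 0.10 SE, adjusted p = 0.0117, edgeR). Both calls were lost with upper quartile and total count scaling (Ddx39b adjusted p = 0.615, Dhx15 adjusted p = 0.396, total count).

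The other 8 spliceosomal members (Ddx23, Ddx41, Ddx42, Ddx46, Dhx8, Dhx16, Dhx35 and Dhx38) had log2 fold changes from -0.22 in Ddx41 to 0.04 in Ddx23. Dhx16 passed, as a fall, when LPS replicate 3 was dropped (-0.27, adjusted p = 0.0345). With total count scaling 6 members of this group fell and 0 rose, and with upper quartile scaling 5 fell and 0 rose. Of all 13864 tested genes, 5774 fell and 1711 rose with total count scaling, and 4407 fell and 1992 rose with upper quartile scaling. Among 53 spliceosome proteins that are not helicases, 4 rose and 24 fell with total count scaling. With TMM scaling 8 rose (15.1%, beside 18.9% of all tested genes) and 3 fell (5.66%, beside 21.0%), with a median of -0.06. Prpf38a, a protein needed to activate the spliceosome (1.25 ± 0.19 SE), and Prpf4, of the U4/U6 particle (0.65 ± 0.12), rose most, and Sf3a1 and Prpf3 had the largest falls (-0.35 ± 0.13 and -0.34 ± 0.12).

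For 3 helicases of mRNA export no change was called. Ddx19a and Ddx19b release export factors at the nuclear pore. Ddx19a was at 20.03, 19.8, 23.0, 21.3 and 21.2 CPM in saline and at 17.3, 19.4, 21.6, 22.0 and 21.8 CPM in LPS libraries. Ddx19b was at 17.3, 18.6, 13.9, 17.0 and 15.3 CPM in saline and at 15.6, 17.3, 16.8, 17.5 and 20.4 CPM in LPS libraries. Both overlapped between the groups (log2 fold changes -0.05 and 0.10), though Ddx19a passed as a fall with total count scaling (-0.32, adjusted p = 0.0255). They are neighbours on chromosome 8, and 28.1% of the 50-base stretches of Ddx19a transcripts also occur in Ddx19b, so their reads may be shared. Ddx39, a close relative of Ddx39b, was at 14.5, 16.3, 17.4, 15.05 and 13.4 CPM in saline and at 16.7, 15.2, 19.7, 13.4 and 16.1 CPM in LPS libraries, again overlapping. It overlaps Adgre5, a gene on the other strand that fell and had more reads, over 3642 bases.

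Translation, mRNA decay and tRNA processing involve 7 members, of which 3 rose, 0 fell and 4 did not pass. Rising members were 42.9% of the 7, beside 18.9% of all tested genes, of which 21.0% fell. Under upper quartile and under total count scaling 1 rose, Ddx3x, and 2 fell, Ddx6 and Dhx29. Ddx3x, an X-linked helicase that helps start translation on structured mRNAs, was at 193, 216, 199, 203 and 253 CPM in saline and at 273, 313, 263, 341 and 352 CPM in LPS libraries. The groups did not overlap, with saline replicate 5 nearest to LPS replicate 3. Ddx3x rose by 0.53 ± 0.11 on the log2 scale (SE, edgeR adjusted p = 0.00133), or by 0.61 without saline replicate 5. Its Y-linked copy Ddx3y was at 63.0, 81.3, 69.2, 86.9 and 96.4 CPM in saline and at 105, 109, 75.8, 120 and 133 CPM in LPS libraries. LPS replicate 3 lay below 3 saline libraries, and the rise of 0.45 ± 0.15 (SE; adjusted p = 0.0263) failed the threshold when saline replicate 1, saline replicate 3, LPS replicate 4 or LPS replicate 5 was dropped (adjusted p up to 0.0678) and with upper quartile or total count scaling. Ddx1, a subunit of the tRNA ligase complex, was at 68.8, 75.8, 75.2, 81.1 and 92.2 CPM in saline and at 92.8, 97.2, 95.1, 106 and 98.3 CPM in LPS libraries. The gap between the groups was narrow (log2 fold change 0.32 ± 0.09 SE, adjusted p = 0.0124, edgeR), and the call was lost with upper quartile scaling (0.16, adjusted p = 0.130) and total count scaling (0.05, adjusted p = 0.628).

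Ddx6, which holds mRNAs in a repressed state and feeds them to decapping, was at 175, 171, 164, 163 and 181 CPM in saline and at 134, 153, 146, 146 and 172 CPM in LPS libraries. LPS replicate 5 lay inside the saline range, and the log2 fold change of -0.18 ± 0.09 (SE) did not pass (adjusted p = 0.104), but it did without LPS replicate 5 and with upper quartile or total count scaling (adjusted p = 0.00112 in the last). Dhx29, which helps the small subunit scan structured leaders, Dhx34, of nonsense-mediated decay, and Dhx36, which unwinds G-quadruplexes, had log2 fold changes of -0.14, 0.05 and 0.15. Dhx29 passed as a fall with upper quartile (-0.30, adjusted p = 0.0490) and total count scaling (-0.42, adjusted p = 0.0151).

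Transcription cofactors split in direction. Ddx5 and Ddx17 are close relatives that act as coregulators of transcription and in splicing and microRNA processing. Ddx5, the most abundant member per length, was at 377, 438, 365, 402 and 453 CPM in saline and at 497, 506, 436, 499 and 540 CPM in LPS libraries. LPS replicate 3 lay below saline replicates 2 and 5, and the rise of 0.28 ± 0.09 on the log2 scale (SE; adjusted p = 0.0217, edgeR) failed the threshold when saline replicate 3 or saline replicate 4 was dropped (adjusted p up to 0.0708), with upper quartile scaling and with total count scaling, where it was 0.01. Ddx17 was at 155, 175, 155, 144 and 158 CPM in saline and at 125, 114, 139, 107 and 132 CPM in LPS libraries. All LPS libraries lay below all saline libraries, and Ddx17 changed by -0.35 ± 0.09 on the log2 scale (SE; adjusted p = 0.00844), or -0.62 with total count scaling.

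Dhx9, a helicase that bridges transcription factors to RNA polymerase II and unwinds RNA hybrids, was at 77.4, 64.4, 68.1, 64.1 and 78.8 CPM in saline and at 73.5, 92.5, 94.7, 87.5 and 110 CPM in LPS libraries. LPS replicate 1 lay below saline replicates 1 and 5, and Dhx9 rose by 0.38 ± 0.11 (SE; adjusted p = 0.0137), a call lost with upper quartile and total count scaling. Ddx20, part of the SMN complex that builds spliceosomal particles, did not pass (log2 fold change -0.21 ± 0.15, adjusted p = 0.267) but did, as a fall, with total count scaling (-0.49, adjusted p = 0.0121).

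Among members whose roles are less well described, Dhx57 fell most of all. It was at 10.5, 13.4, 9.82, 11.5 and 7.07 CPM in saline and at 5.67, 5.06, 5.90, 4.34 and 5.45 CPM in LPS libraries. Saline replicate 5 was again the saline library nearest to LPS, without overlap, and Dhx57 changed by -0.98 ± 0.17 on the log2 scale (SE; edgeR adjusted p = 0.000416), or -1.09 with that library dropped. Ddx59, linked to ciliary signalling, was at 6.16, 5.74, 7.18, 7.12 and 7.55 CPM in saline and at 9.75, 8.71, 7.92, 11.8 and 8.44 CPM in LPS libraries. It rose by 0.46 ± 0.15 (SE; adjusted p = 0.0199), with no overlap, and missed the threshold with upper quartile and total count scaling (adjusted p = 0.267 in the latter). Dhx32 and Dhx40 had log2 fold changes of -0.07 and -0.06, and Dhx32 passed as a fall with total count scaling (-0.34, adjusted p = 0.0211). Ddx11, a DNA helicase of sister chromatid cohesion, had the lowest FPKM of the tested members (0.253 ± 0.0771 in saline and 0.177 ± 0.0713 in LPS hearts, SD, n = 5; adjusted p = 0.213, edgeR).

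Since the ratio of 2 genes within a library does not depend on scaling, 5 pairs of related members were also compared by their read ratios (exact permutation test, two-sided, over 252 assignments, adjusted over the 5 pairs). This comparison was added after the gene values had been seen. Ddx21 and Ddx50 are neighbouring nucleolar paralogs on chromosome 10, 13613 bases apart, and share no 50-base stretch of transcript. Ddx21 had 1.5, 1.28, 1.25, 1.27 and 1.75 reads per Ddx50 read in saline and 2.56, 2.70, 3.49, 2.97 and 3.38 in LPS libraries. The log2 ratio was 1.10 higher with LPS, in 5 of 5 libraries above all saline ones (exact p = 0.00794, the smallest this design allows; adjusted p = 0.0198), and 1.18 higher without saline replicate 5. Ddx50 itself was at 41.0, 45.8, 42.7, 43.2 and 46.2 CPM in saline and at 40.7, 47.8, 40.3, 45.4 and 49.6 CPM in LPS libraries, overlapping groups. Its log2 fold change of 0.03 became a called fall with total count scaling (-0.24, adjusted p = 0.0365).

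Ddx5 had 2.44, 2.50, 2.36, 2.79 and 2.87 reads per Ddx17 read in saline and 3.96, 4.44, 3.13, 4.65 and 4.10 in LPS libraries. Here too the groups did not overlap (log2 ratio 0.64 higher, exact permutation p = 0.00794, adjusted p = 0.0198). The balance of reads of the 2 paralogs thus differed beyond the spread between libraries whatever the scaling. The same libraries had already given the 2 genes opposite calls, so the ratio is not separate support for those calls. Of the 50-base stretches in Ddx5 transcripts, 14.6% also occur in other annotated transcripts, chiefly the predicted gene Gm12183, against 0% for Ddx17. Some Ddx5 reads may therefore have been split, and the effect on the ratio was not tested. The log2 ratio of Ddx39 to Ddx39b fell by 0.26 with overlapping groups (exact p = 0.0238, adjusted p = 0.0397), a value that the overlap of Ddx39 with Adgre5 touches. Ddx3x to Ddx3y (0.09 higher, exact p = 0.452, adjusted p = 0.452) and Ddx19a to Ddx19b (-0.15, exact p = 0.270, adjusted p = 0.338) did not differ beyond the spread between libraries. Only 0.0369% of the 50-base stretches of Ddx3x occur in Ddx3y.

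**Figure D4:**
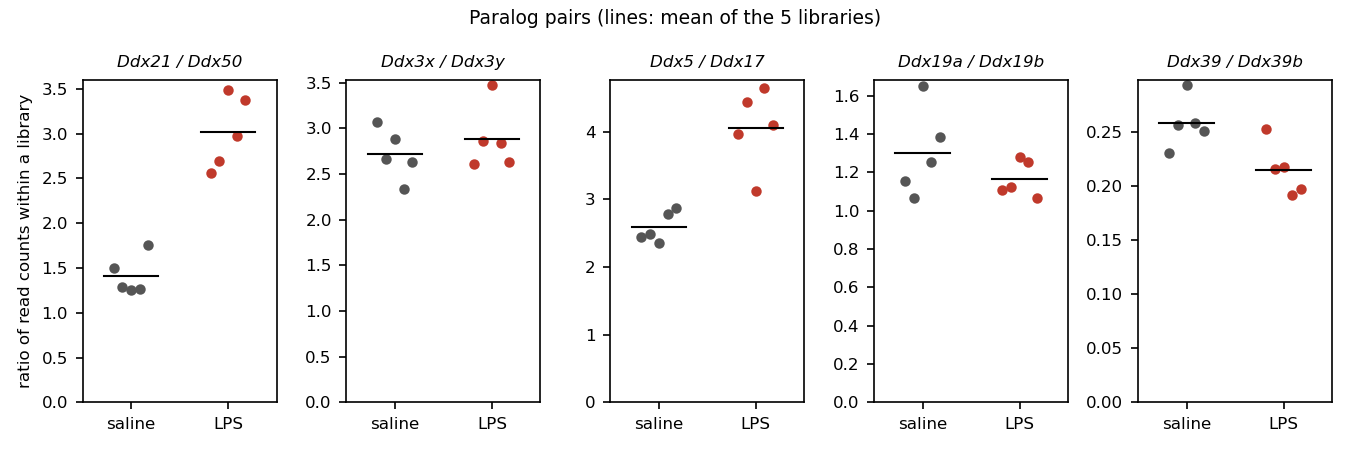
Ratio of read counts within a library (vertical axes, from 0) for 5 pairs of related members, with 1 point per library and a line at the mean of each group of 5. LPS points lie above all saline points for Ddx21 over Ddx50 (2.56 to 3.49 against 1.25 to 1.75) and Ddx5 over Ddx17 (3.13 to 4.65 against 2.36 to 2.87), and overlap in the other 3 pairs.

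Per length, the family spans a wide range. By the mean FPKM of saline hearts Ddx5 led with 74.2 ± 7.03 (SD, n = 5), followed by Ddx3x with 42.5 ± 4.95 and Ddx6 with 22.4 ± 1.04. Ddx17 was close to Ddx6 at 21.7 ± 1.54, and Ddx39b, Ddx1 and Ddx3y were close together at 16.5, 16.3 and 16.1 FPKM. Differences between genes were not tested. The first 3 held 34.1% ± 1.13 of the summed FPKM of all members in saline and 35.1% ± 2.11 in LPS hearts. The median tested member was at 4.85 FPKM, and 47 members were above 1 FPKM. Members took 0.241% ± 0.00707 of all reads in saline and 0.241% ± 0.0223 in LPS libraries, while their summed FPKM, which carries the authors' scaling, was 408 ± 23.1 and 498 ± 39.1.

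**Figure D5:**
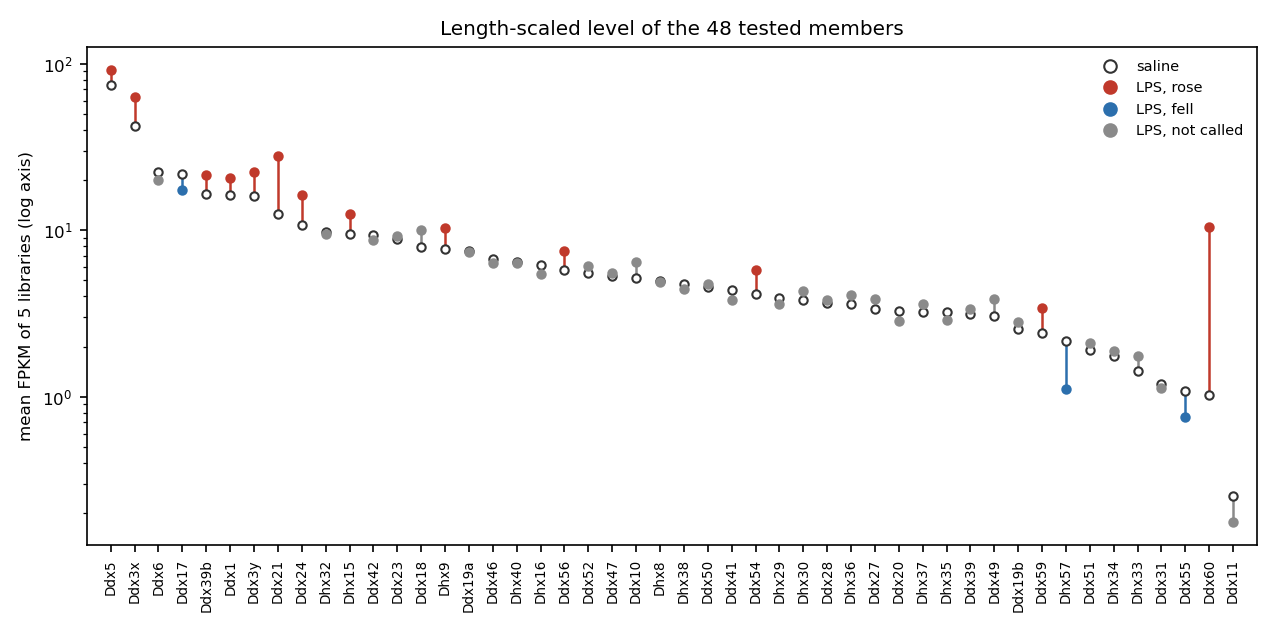
Mean FPKM of 5 libraries (vertical axis, logarithmic) of the 48 tested members, ordered by their level in saline hearts (open circles), with the LPS mean as a filled circle coloured by call. Ddx5 and Ddx3x lead in both groups, and Ddx60 moves from 1.03 to 10.4 FPKM.

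Among the members, spread between libraries was larger in LPS hearts, though this was not tested. The median coefficient of variation of the 48 tested members was 9.95% in saline and 14.4% in LPS libraries, and it was larger with LPS in 34 members. All members were measured in the same libraries, so these counts are not independent, and the value over all genes was not computed. LPS replicate 3 was the highest of its group in 21 members and LPS replicate 5 in 19, while LPS replicate 1 was the lowest in 25. For ribosome assembly helicases LPS replicate 3 was the highest in 10 of 16. Saline replicate 5 was the highest of its group in 21 of the 48 tested members, and in 11 of the 13 that rose. For none of these counts was the share among all tested genes, or among all rising genes, computed.

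RNA helicases outside the Ddx and Dhx names were counted for comparison. Of 20 tested, 8 rose and 1 fell, and the median log2 fold change was 0.13. That is 40% rising and 5% falling, beside 18.9% and 21.0% of all tested genes. With total count scaling 7 rose and 8 fell (median -0.14). Helz2, an interferon-inducible helicase, and Znfx1, an antiviral RNA-binding helicase, rose most (3.0 ± 0.52 and 2.51 ± 0.53 SE). Some helicases have cofactors that act on their ATPase. Of 22 G-patch proteins, a class in which some members activate DEAH helicases, 2 rose and 3 fell. The rises were in Gpatch4 (0.56 ± 0.15) and Gpatch2 (0.38 ± 0.12), and the largest falls in Gpatch11 (-0.44 ± 0.15) and Rbm10 (-0.36 ± 0.13). Rising genes were 9.09% and falling genes 13.6% of this list, but the balance depended on scaling. With upper quartile scaling 1 rose and 9 fell, and with total count scaling 0 rose and 10 fell (median -0.31). Among all 13864 tested genes, 1992 rose and 4407 fell with upper quartile scaling. With total count scaling 1711 of all genes rose and 5774 fell (median -0.30). Of 23 MIF4G and related cofactors of DEAD-box proteins 3 rose and 4 fell; Eif4g2 and Nom1 rose by 0.28 ± 0.09 and 0.27 ± 0.09, and Pdcd4, an inhibitor of the helicase eIF4A, and Edc3, a partner of Ddx6, fell (-1.08 ± 0.17 and -0.74 ± 0.17). Rising genes were 13% and falling genes 17.4% of this list with TMM scaling. No rise in it passed with upper quartile scaling, where 8 fell, or with total count scaling, where 12 fell (median -0.27).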

How the data were processed

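RNA of 10 mouse hearts (5 saline, 5 LPS, grouped by the sample titles) was sequenced from Illumina TruSeq RNA libraries. The authors deposited raw read counts per Ensembl gene and FPKM (length- and depth-scaled values) in 1 table. Bowtie 0.12.2 and the mm9 build are named in the submitters' processing notes, with no role; the sources used here give neither the counting tool nor the strand setting. Coordinates of 50 of the 51 members equal GENCODE M21 (GRCm38), the build used here; Dhx57 differs at its start. The 20 FPKM columns of 2 further deposited tables, whose LPS columns are named for 3 h and not 24 h, were not used.

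Counts were tested with edgeR 4.0.16 in R 4.3.3 (filterByExpr with minimum count 10 and minimum total 15, TMM scaling, robust quasi-likelihood F-test, Benjamini-Hochberg adjustment over 13864 genes, threshold 0.05, two-sided). SE derive from the F statistic. CPM are counts scaled to the effective library size. "Rose" and "fell" mark genes past the threshold. Alternatives were 3 other scalings (RLE, upper quartile, total count), 2 other filters, DESeq2 1.42.0, limma 3.58.1 voom, a replicate block and leaving out each library. Members, role lists and the rule for named genes were chosen with earlier results of these data known. The rule takes Ddx60, up to 8 members per direction with the largest called change, 5 paralog pairs, the 3 members with the highest FPKM any member whose call changes when 1 library is left out and, per other list, the 2 largest called changes in each direction. In 1 list, a gene chosen this way is left unreported. The test was first tried on simulated data. Promoter windows are from RefSeq (GRCm38.p6), and 50-base stretches from GENCODE M21 transcripts.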

Additional observations from a re-analysis of the deposited data

Results flagged for a closer look

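In 4 of the 96 groups of 5 libraries looked at (48 members, 2 groups each), 1 library lay far from the other 4; chance alone flags about 1 in 20 groups. In saline hearts this was Ddx24 in saline replicate 5, at 104.1 CPM, where the next library was at 81.1 CPM. LPS replicate 3 stood above the rest of its group in Ddx49, at 13.2 CPM with the next library at 10.1 CPM. It also did so in Ddx54, at 41.0 CPM against 32.5 CPM, and in Dhx16, at 25.1 CPM against 20.6 CPM. LPS replicate 3 had the lowest summed interferon-stimulated genes of the LPS libraries (8315 CPM) and saline replicate 5 the highest of the saline libraries (5005 CPM). Their part in these values was not tested.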

How the results depend on the processing

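Scaling changed the counts most. With upper quartile scaling 1992 genes rose and 4407 fell in all. Of the members 5 rose and 10 fell, with a median log2 fold change of -0.068. With total count scaling 1711 genes rose and 5774 fell in all, and of the members 4 rose and 15 fell, with a median of -0.18. Rising genes were 47.3% of all calls with TMM, 31.1% for upper quartile and 22.9% for total count scaling. Leaving out single libraries, 2 to 5 members fell (3 with all libraries) and 9 to 15 rose. Without LPS replicate 5 the 5 falling members included the 3 called with all libraries. With RLE scaling, DESeq2, limma voom, both other filters and the replicate block, 13 or 14 members rose and 2 or 3 fell. Of 13 rising members 4, and of 3 falling members 2, kept their call in all 18 alternatives, and no called member changed sign in any.

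With a replicate block 13 members rose and 2 fell. Same-numbered libraries correlated between -0.07 and 0.18 in their deviations from the group means. The labels do not say whether same-numbered mice shared housing or processing, and these correlations cannot decide it. The 3 germ line members had at most 27 reads per group, too few for a test at this depth.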
